A study of Mus musculus with 4 samples.

Results

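Aminoacyl-tRNA synthetases are the enzymes that load each amino acid onto its transfer RNA. The genes were chosen by name: 20 cytosolic enzymes and 16 mitochondrial ones (symbols ending in 2), which together had 46 probes, of 34844 gene names and 55681 probes on the array. Of these 36 genes, 35 had a probe well above background on all 4 arrays. Nars2, the mitochondrial asparagine enzyme, had 1 probe that was not well above background on any array and has no level here. The study asked how the kinase p38 alpha relates to purine metabolism and to the entry of blood stem and progenitor cells into the cell cycle.

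RNA came from 4 sorted mouse preparations, each measured on 1 one-colour (Cy3) Agilent array. The 4 groups were cKO LT-HSC, WT LT-HSC, cKO MPP and WT MPP. LT-HSC are long-term haematopoietic stem cells, sorted as CD34- Flt3- cells of the LSK (lineage-negative, Sca-1-positive, Kit-positive) fraction, and MPP are multipotent progenitors, sorted as CD34+ Flt3+ LSK cells. Donors were 10-week-old male C57BL/6J mice carrying Ly5.2, either wild type (WT) or with a conditional knockout (cKO) of p38. In all 4 groups the cells were stained with CFSE, transplanted into Ly5.1 recipients given 9.5 Gy, and sorted again as CFSE-positive marrow cells after 16 h. The Cre driver, the deleted exons and the number of mice per array are not given in the sources used here.

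Each synthetase recognises 1 amino acid and the tRNAs for it, and the charged tRNA then feeds the ribosome. Most cells keep separate nuclear genes for the cytosolic and the mitochondrial enzyme, but Gars (glycine) and Kars (lysine) each encode both forms, and Eprs charges both glutamate and proline tRNAs. The enzymes fall into structural classes, class I and class II, which differ in the fold of the catalytic domain. In the cytosol of animal cells, Dars, Eprs, Iars, Kars, Lars, Mars, Qars and Rars sit in a multisynthetase complex held together by the scaffold proteins Aimp1, Aimp2 and Eef1e1. Many cytosolic synthetase genes are targets of Atf4, the transcription factor of the amino acid stress response. Blood stem cells at rest are known for a low rate of protein synthesis compared with progenitors.

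Values below are processed scanner signals scaled to a common 75th percentile, in arbitrary units of brightness, and differences are on the log2 scale. An error given with ± is the error that the scanner software assigns to a difference between 2 arrays (median 0.20 to 0.21 over the members), which leaves out cells, sorts and RNA amplification. With 1 array in each group no pair of arrays gives a test, so a difference of 1.5-fold or more is counted and set beside the share of all genes that pass the same fold. On each array, 62.5% to 70.5% of spots passed the scanner flag for signal well above background and 0 were saturated, and all arrays lay on 1 slide and in 1 scan. Mapk14, which encodes p38 alpha, differed by -0.58 ± 0.20 (cKO minus WT in LT-HSC) at its brighter probe and by 0.13 ± 0.20 at the other, and by 0.13 ± 0.20 and -0.03 ± 0.20 in MPP. Which exons were deleted is not stated, so these probes do not check the genotype labels. The stem and progenitor markers fitted the sort in part: all 9 were well above background on both LT-HSC arrays and 8 of 9 on both MPP arrays, where the stem cell marker Slamf1 was not, and Cd34 was lower on the LT-HSC array in cKO (-1.02 ± 0.20) and WT (-2.99 ± 0.20). Flt3 was lower at its brightest probe (-1.16 in cKO, -1.80 in WT) and higher at its other probes (0.63 and 0.70 in cKO, 0.88 and 0.22 in WT). Over the stem and progenitor markers measured on both arrays, LT-HSC minus MPP had a median of -0.02 in cKO and -0.67 in WT. By 1.5-fold or more, 3 of 8 were lower in cKO and 5 of 8 in WT, against 19.6% and 32.6% of all genes. In each genotype 1 was higher by that fold, against 13.5% and 16.3%. Sums over all 9 markers were 12908 (cKO) and 10385 (WT) on the LT-HSC arrays. On the MPP arrays the sums were 13588 (cKO) and 16987 (WT).

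The comparison of LT-HSC with MPP asks how the stem cell preparation differed from the progenitor preparation of the same genotype. Synthetase transcripts were mostly lower on the LT-HSC arrays, in both genotypes. In cKO, 33 of 35 were lower by any amount and 20 by 1.5-fold or more, with 0 higher by that fold, and 6 were lower by 2-fold. In WT, 29 of 35 were lower by any amount, 23 by 1.5-fold or more and 18 by 2-fold, and 1 gene, Yars, was higher by 2-fold. Over all genes measured on both arrays, 19.6% were lower by 1.5-fold in cKO and 32.6% in WT, and 13.5% and 16.3% were higher. Any lower value was seen for 57.0% of them in cKO and 59.5% in WT, a 2-fold lower one for 6.43% and 18.1%, and a 2-fold higher one for 6.67% and 9.15%. The median difference of the 35 genes was -0.64 in cKO and -1.07 in WT, against -0.09 and -0.20 over all genes.

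Both LT-HSC arrays lay below both MPP arrays for 28 of the 35 synthetases, against 37.3% of the 21564 genes well above background on all 4 arrays. Of the members, 15 were lower by 1.5-fold or more in each genotype, against 12.8% of the same genes. These 15 were Aars, Dars, Eprs, Farsb, Gars, Hars, Iars, Kars, Lars, Mars, Tars and Wars among cytosolic enzymes and Iars2, Rars2 and Sars2 among mitochondrial ones. The list is not firm. In cKO, 8 cytosolic and 3 mitochondrial genes passed relative to the median of all genes or with the percentile over probes above background. With quantile normalization the difference shared by both genotypes was under 1.5-fold for Gars (-0.48), Lars (-0.50) and Tars (-0.48). The comparisons within cKO and within WT share no array. The 7 genes whose groups overlapped or ran the other way were Vars, Yars, Cars2, Ears2, Hars2, Pars2 and Tars2, and Hars2 alone was higher on both LT-HSC arrays than on both MPP arrays.

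**Figure D1:**
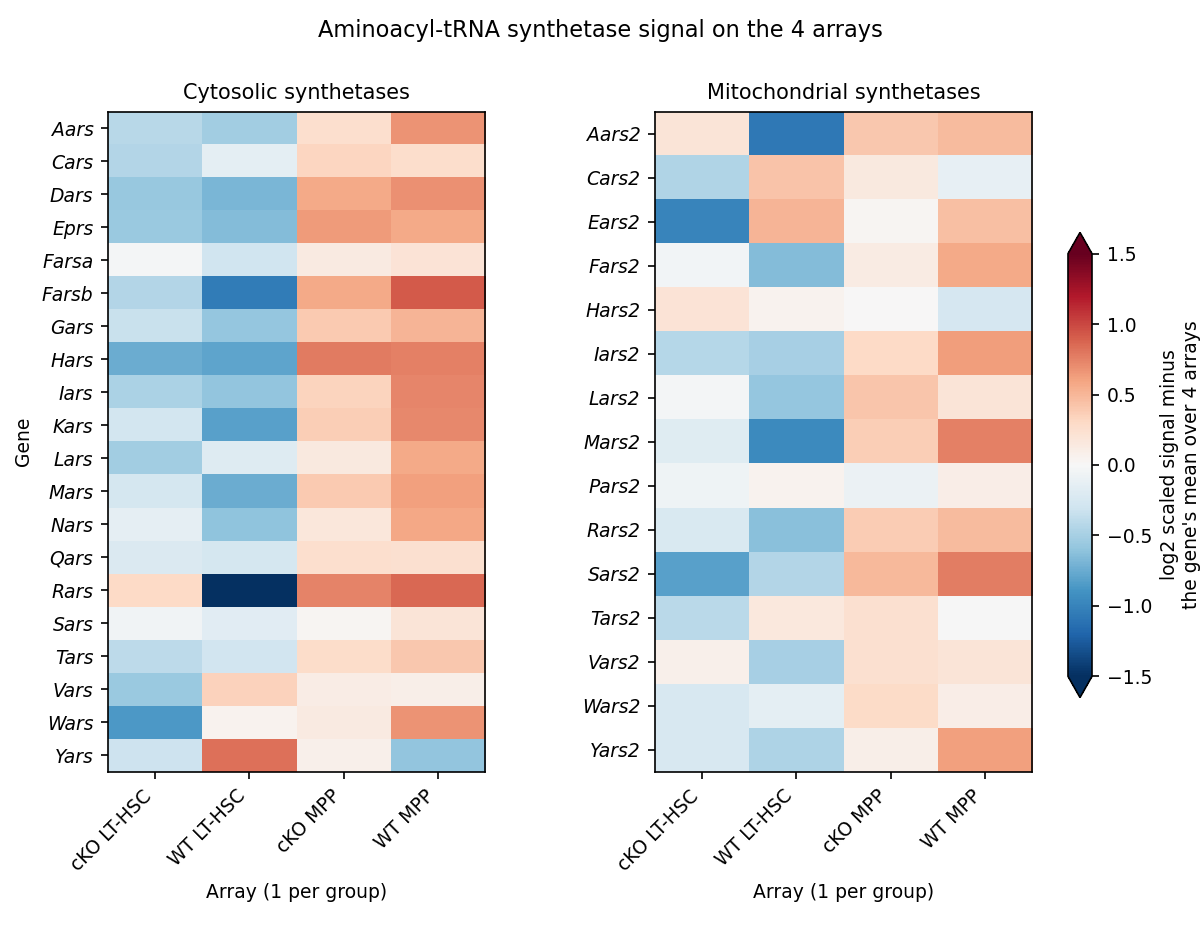
Colour gives the log2 scaled signal of each synthetase (rows) on each of the 4 arrays (columns, 1 array per group) minus that gene's mean over the 4 arrays, with the colour scale ending at 1.5 in each direction. The LT-HSC columns are mostly blue and the MPP columns mostly red, with Rars lowest on the WT LT-HSC array (108) and Hars2 running the other way.

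Among the cytosolic enzymes, the histidine enzyme Hars had almost the same difference in each genotype. Its scaled signal was 200.4 on the cKO LT-HSC and 194 on the WT LT-HSC array, against 577 on the cKO MPP and 566 on the WT MPP array. The LT-HSC arrays were thus close to each other and well apart from the MPP arrays, a difference of -1.52 ± 0.20 in cKO and -1.55 ± 0.20 in WT. Eprs, which charges glutamate and proline tRNAs, had 141 and 133 on the cKO and WT LT-HSC arrays, against 325 and 309 on the cKO and WT MPP arrays. Its differences were -1.20 ± 0.21 in cKO and -1.21 ± 0.21 in WT, again with no overlap of the populations. Dars, the aspartate enzyme, had 386 and 355 on the cKO and WT LT-HSC arrays, against 849 and 921 on the cKO and WT MPP arrays, a difference of -1.14 ± 0.20 in cKO and -1.37 ± 0.20 in WT.

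Phenylalanyl-tRNA synthetase is built from a pair of different subunits, and their transcripts did not move alike. Farsb, the beta subunit, had 499 and 328 on the cKO and WT LT-HSC arrays, against 1009 and 1280 on the cKO and WT MPP arrays. The differences were -1.02 ± 0.20 in cKO and -1.97 ± 0.20 in WT. Farsa, the alpha subunit, had 1720 and 1425 on the cKO and WT LT-HSC arrays, against 1921 and 2016 on the cKO and WT MPP arrays, at its brightest probe. That gave -0.16 ± 0.20 in cKO and -0.50 ± 0.20 in WT, both under 1.5-fold. The other Farsa probes gave -0.36 and 0.11 in cKO and -0.48 and -0.72 in WT, the last of these past 1.5-fold. The Farsb probe and 1 of the 3 Farsa probes span more of the genome than their 60 bases (11023 and 161 bases on mm9), so each crosses at least 1 intron.

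The arginine enzyme Rars stood apart on 1 array. It had 500.5 on the cKO LT-HSC and 108 on the WT LT-HSC array, against 679 on the cKO MPP and 741 on the WT MPP array. The difference was -0.44 ± 0.20 in cKO and -2.77 ± 0.21 in WT, so the size in WT rests on 1 array. Its 1 probe crosses an intron as well, over 1177 bases at chr11:35633429-35634605 (mm9, minus strand). The 60-base probes of Rars, of Farsb (chr1:78440318-78451340, minus strand), of Dars (chr1:130310284-130311944, minus strand) and of Farsa (chr8:87391534-87391694, plus strand) are given here as the scanner files list them, because each crosses an intron and so reads spliced transcripts. For Farsa this is not the brightest probe, and its signals follow with the probes of 1 gene.
Rars probe: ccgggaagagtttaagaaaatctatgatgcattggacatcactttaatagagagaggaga
Farsb probe: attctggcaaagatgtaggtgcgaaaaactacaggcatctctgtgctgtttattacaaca
Dars probe: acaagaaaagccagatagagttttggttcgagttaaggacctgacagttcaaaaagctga
Farsa probe: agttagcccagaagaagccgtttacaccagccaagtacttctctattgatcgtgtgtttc

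The 8 enzymes of the multisynthetase complex were all lower on the LT-HSC array in each genotype, with medians of -0.66 in cKO and -1.34 in WT. By 1.5-fold or more, 6 of 8 were lower in cKO and 7 of 8 in WT, against 19.6% and 32.6% of all genes. Qars, the glutamine enzyme, was the member of the complex under that fold in both (-0.47 ± 0.20 in cKO and -0.50 ± 0.20 in WT). The 12 cytosolic enzymes outside the complex had medians of -0.66 in cKO and -0.66 in WT. Of these, 8 were lower by 1.5-fold in cKO and 7 in WT, against the same shares of all genes. The scaffold genes had the same direction: Aimp1 differed by -0.65 in cKO and -0.70 in WT, Aimp2 by -0.39 and -1.97, and Eef1e1 by -1.12 and -1.98. Eef1e1 had 433 and 328 on the cKO and WT LT-HSC arrays, against 945 and 1294 on the cKO and WT MPP arrays.

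By structural class, the 10 class II enzymes were lower in 10 of 10 cases in each genotype (medians -0.66 in cKO and -1.19 in WT). The 10 class I enzymes were lower in 10 of 10 in cKO (median -0.66) and in 8 of 10 in WT (median -0.69). Of all genes, 57.0% in cKO and 59.5% in WT were lower by any amount. The class I exceptions in WT were the valine enzyme Vars (0.26 ± 0.20) and the tyrosine enzyme Yars (1.42 ± 0.36, and 0.36 with normexp). Yars was dim on every array, with 25.4 and 56.1 on the cKO and WT LT-HSC arrays, against 33.4 and 21.04 on the cKO and WT MPP arrays. The serine enzyme Sars differed little, at -0.07 ± 0.20 in cKO and -0.36 ± 0.20 in WT.

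Glycine and lysine enzymes for both compartments come from Gars and Kars. Gars had 4955 and 4162 on the cKO and WT LT-HSC arrays, against 8207 and 8884 on the cKO and WT MPP arrays (-0.73 ± 0.20 in cKO, -1.09 ± 0.20 in WT). Kars had 2968 and 2035 on the cKO and WT LT-HSC arrays, against 4617 and 5902 on the cKO and WT MPP arrays (-0.64 ± 0.20 in cKO, -1.54 ± 0.20 in WT). The populations did not overlap for either gene. Without this pair the median of the cytosolic genes was -0.66 in cKO and -0.97 in WT.

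**Figure D2:**
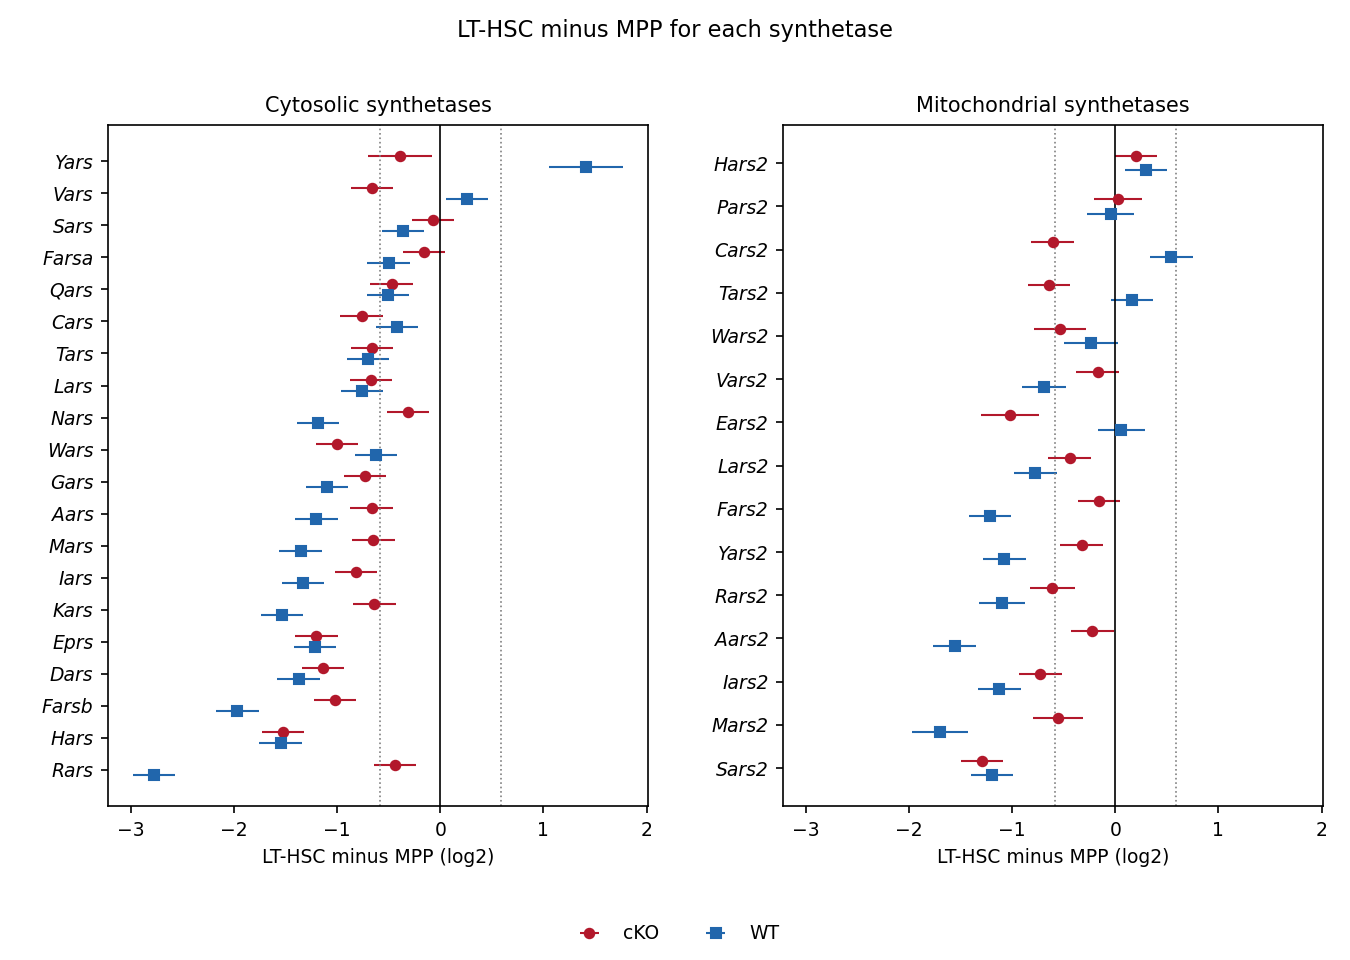
Points give LT-HSC minus MPP on the log2 scale for each synthetase in cKO (red circles) and in WT (blue squares), bars the scanner software's error of the difference, and dotted lines 1.5-fold. Hars (-1.52 in cKO, -1.55 in WT) and Sars2 (-1.29 in cKO, -1.20 in WT) nearly coincide between genotypes, whereas Rars and Yars are far apart.

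The mitochondrial enzymes serve translation of the proteins encoded in the mitochondrial genome. At the brightest probe of each gene, they were less uniform in direction than the cytosolic ones. Of the cytosolic genes, 20 of 20 were lower on the LT-HSC array in cKO and 18 of 20 in WT. In cKO 13 of 15 were lower on the LT-HSC array, against 57.0% of all genes, and 6 of them by 1.5-fold or more, against 19.6%. That 6 became 1 with normexp background correction, and 3 relative to the median of all genes or with the percentile over probes above background, so it is not a firm count. In WT 11 of 15 were lower, against 59.5% of all genes, and 9 by 1.5-fold or more, against 32.6%. By that fold 0 were higher in either genotype, against 13.5% of all genes in cKO and 16.3% in WT. In WT, Cars2 (0.54) and Tars2 (0.16) were higher at the brightest probe but lower at their other probe (-1.07 and -0.18). The lesser uniformity in WT thus depended in part on the probe taken. Sars2, the mitochondrial serine enzyme, had 256 and 333 on the cKO and WT LT-HSC arrays, against 628 and 762 on the cKO and WT MPP arrays. It differed by -1.29 ± 0.20 in cKO and -1.20 ± 0.20 in WT, with no overlap. Iars2, for isoleucine, differed by -0.73 ± 0.21 in cKO and -1.12 ± 0.21 in WT, and Rars2, for arginine, by -0.61 ± 0.22 and -1.10 ± 0.22. With normexp, Iars2 (-0.52) and Rars2 (-0.39) were under 1.5-fold in cKO, and Sars2 (-1.09) was not.

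Other mitochondrial genes depended on the genotype compared. Aars2, for alanine, had 183 and 76.1 on the cKO and WT LT-HSC arrays, against 213 and 224 on the cKO and WT MPP arrays, a difference of -0.22 ± 0.21 in cKO and -1.56 ± 0.21 in WT. Mars2, for methionine, had 41.6 and 24.3 on the cKO and WT LT-HSC arrays, against 61.0 and 79.2 on the cKO and WT MPP arrays (-0.55 ± 0.24 in cKO, -1.70 ± 0.27 in WT). Both genes were lowest on the WT LT-HSC array. Ears2, for glutamate, was lowest on the cKO LT-HSC array, with 23.5 and 66.0 on the cKO and WT LT-HSC arrays, against 47.5 and 63.4 on the cKO and WT MPP arrays. Hars2, for histidine, had 2789 and 2510 on the cKO and WT LT-HSC arrays, against 2432 and 2042 on the cKO and WT MPP arrays, at 0.20 ± 0.20 in cKO and 0.30 ± 0.20 in WT. Its cytosolic counterpart Hars went the other way.

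Set side by side, the median difference of LT-HSC from MPP was -0.54 for mitochondrial and -0.66 for cytosolic enzymes in cKO, and -0.77 and -1.14 in WT. The gap between the medians (cytosolic minus mitochondrial) was -0.13 in cKO and -0.37 in WT, but 0.01 and -0.01 with quantile normalization, and -0.07 in WT when all probes of a gene were averaged. The size of the gap therefore depended on the processing, and no test of it was available. The share lower by 1.5-fold in each genotype was 12 of 20 cytosolic and 3 of 15 mitochondrial genes. Of all genes well above background on every array, 12.8% were lower by that fold in each genotype. In cKO alone, 14 cytosolic and 6 mitochondrial genes passed that fold, and 11 and 1 with normexp, where Iars2 and Rars2 did not. Cytosolic genes spread less than mitochondrial ones in cKO, with standard deviations over genes of 0.35 and 0.39, and more in WT, with 0.86 and 0.72. The brighter genes of the array, those above the median level, were also lower on the LT-HSC array, with medians of -0.21 in cKO and -0.31 in WT.

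**Figure D3:**
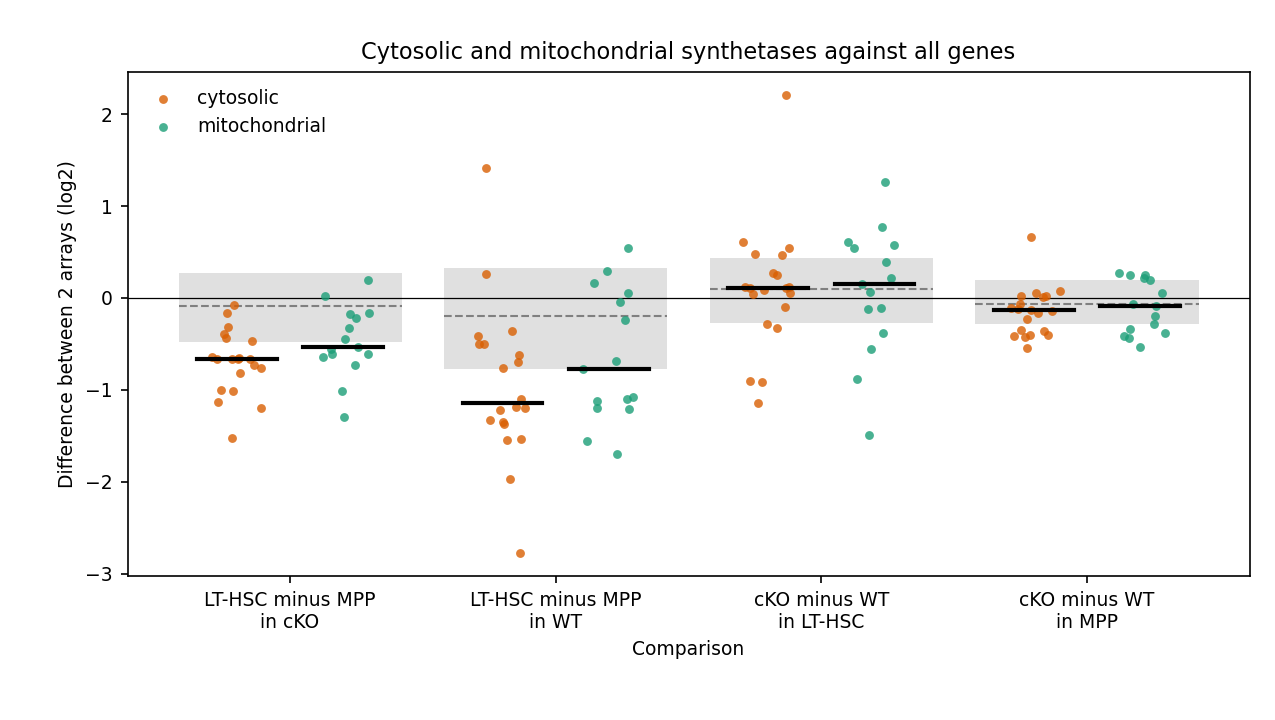
Points are the log2 differences of single synthetases between the 2 arrays of each comparison, cytosolic on the left (orange, n = 20) and mitochondrial on the right (green, n = 15), black bars their medians, and grey boxes and dashed lines the middle quartiles and the median of all genes. The medians lie at -0.66 and -0.54 for LT-HSC minus MPP in cKO and at -1.14 and -0.77 in WT, and at 0.11 and 0.15 for cKO minus WT in LT-HSC and -0.13 and -0.09 in MPP.

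Other genes of the charging and translation machinery were described by lists chosen for their roles. The 5 cytosolic elongation factor genes encode proteins that take part in bringing charged tRNA to the ribosome or in moving it along. All had lower signals on LT-HSC arrays in each genotype (medians -0.42 in cKO and -0.999 in WT), led in WT by Eef1b2 (-1.23) and Eef1g (-1.14). In cKO 0 of 5 reached 1.5-fold, where 19.6% of all genes were lower by that fold. By any amount, 57.0% of all genes were lower in cKO and 59.5% in WT. Of genes for tRNA maturation and export, 15 of 19 were lower in cKO (median -0.56) and 14 of 18 in WT (median -1.09). Among them were Pop1 (-1.36 in cKO, -1.71 in WT) and Rpp30 (-1.08, -1.64), subunits of RNase P, and Xpot, the tRNA exporter (-0.69, -1.87). Mitochondrial translation factors went both ways, with medians of -0.20 in cKO and -0.39 in WT. Of these, Tufm, the mitochondrial elongation factor Tu, differed by -0.25 in cKO and -0.48 in WT, and Gfm2, a ribosome recycling factor, by -1.48 and 0.91.

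Mitochondria make glutaminyl-tRNA by an amidotransferase rather than by a synthetase of their own. Its subunit genes were also lower on the LT-HSC array: Gatc by -1.44 in cKO and -3.12 in WT, Pet112l (the older symbol of the B subunit gene) by -0.48 and -3.01, and Qrsl1, the A subunit gene, by -0.60 and -0.53. Mtfmt, which formylates the initiator methionyl-tRNA, was split, at 0.39 in cKO and -0.60 in WT. Gatc had 89.3 and 21.4 on the cKO and WT LT-HSC arrays, against 243 and 186 on the cKO and WT MPP arrays. Pet112l had 292 and 53.3 on the cKO and WT LT-HSC arrays, against 408 and 430.1 on the cKO and WT MPP arrays. Both were lowest on the WT LT-HSC array, as 22 of the 35 synthetases were, Rars, Aars2 and Mars2 among them.

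Genes of the Atf4 response and of amino acid supply, which many synthetases share a regulator with, were mostly lower too. In cKO 15 of 17 had less signal in LT-HSC than in MPP (median -0.56), against 57.0% of all genes. In WT 11 of 16 did (median -0.59), which is closer to the 59.5% of all genes. Phgdh, the first enzyme of serine synthesis, differed by -1.08 in cKO and -1.42 in WT, and Mthfd2, a mitochondrial enzyme of folate metabolism, by -0.58 and -2.57. Ddit3, a stress transcription factor downstream of Atf4, was higher, at 1.07 in cKO and 1.20 in WT. The 13 synthetases on the list of Atf4 targets had medians of -0.66 in cKO and -0.76 in WT, and the 7 cytosolic ones not on it had -0.64 and -1.54.

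Markers of cycling and of other cell types were also compared between the arrays, and not all lists differed between the populations. The 9 proliferation genes were lower on the LT-HSC array in 9 of 9 cases in each genotype (medians -1.18 in cKO and -1.14 in WT), with summed scaled signals of 11075 and 9275 on the cKO and WT LT-HSC arrays, against 17011 and 19514 on the cKO and WT MPP arrays. Of the 10 B cell markers, 10 were well above background on both LT-HSC arrays and 6 on both MPP arrays, and their sums were 8684 and 15829 on the cKO and WT LT-HSC arrays, against 3856 and 3161 on the cKO and WT MPP arrays. Erythroid markers summed to 6918 and 14169 on the cKO and WT LT-HSC arrays, against 4482 and 4172 on the cKO and WT MPP arrays. Macrophage markers were highest on the cKO MPP array (24115) and lay at 7252, 8129 and 11628 on the cKO LT-HSC, WT LT-HSC and WT MPP arrays. Stromal and endothelial markers summed to 8448 on the WT LT-HSC array and to between 2257 and 2466 on the others. T and NK cell markers lay between 6557 and 7200.5 on all 4 arrays, with 7 or 8 of 8 well above background on the LT-HSC arrays and 4 or 5 on the MPP arrays. Neutrophil markers summed to 49147 and 40453 on the cKO and WT LT-HSC arrays, against 37545 and 29469 on the cKO and WT MPP arrays. The part of these cells, and of cycling, in the synthetase differences was not tested, and fewer cells of a type cannot be told apart from less RNA per cell.

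An additive fit over all 4 arrays (limma, genotype plus population, 25876 genes) took the LT-HSC minus MPP difference shared by both genotypes. By limma with Benjamini-Hochberg adjustment at 0.05 it called 0 synthetases and 0% of all genes, and the lowest adjusted p among members was 0.23, for Hars (-1.54 ± 0.27 SE, lower in 2 of 2 genotypes). At an unadjusted p under 0.05 there were 11 of 35 synthetases, against 15.8% of all genes: Hars, Sars2, Dars, Eprs, Farsb, Iars, Iars2, Gars, Aars, Mars and Kars, each with a negative difference. The fit has 1 residual degree of freedom and could not call differences of any size tried when tested, so its count of 0 carries no information on whether genes differed.

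The comparison of cKO with WT asks how cells of the p38 knockout differ from wild-type cells of the same population. In LT-HSC the synthetases were split around a small median difference: 0.11 over the 35 genes, 0.11 for the cytosolic and 0.15 for the mitochondrial ones, against 0.10 over all genes. By 1.5-fold or more, 5 of 35 were higher on the cKO array and 5 lower, close to the 18.7% and 14.8% of all genes. By any amount 12 were lower, against 41.4% of all genes, and by 2-fold 2 were lower and 2 higher, against 7.91% and 8.96%. Those higher were Rars (2.21 ± 0.21), Aars2 (1.27 ± 0.21), Mars2 (0.77 ± 0.28), Fars2 (0.61 ± 0.20) and Farsb (0.61 ± 0.20). All of these were at their lowest on the WT LT-HSC array, which the WT comparison of populations also uses, so the same array enters both results. The amidotransferase genes were split, with Pet112l (2.45) and Gatc (2.06) higher and Qrsl1 (-1.03) lower. Of the scaffold genes, Aimp2 stood at 1.10, Eef1e1 at 0.40 and Aimp1 at 0.01.

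At their brightest probes, the 5 lower genes were Ears2 (-1.49 ± 0.27), Yars (-1.14 ± 0.28), Wars (-0.92 ± 0.20), Vars (-0.90 ± 0.20) and Cars2 (-0.88 ± 0.21), but other probes of Wars (1.16) and Cars2 (0.74) went the other way. Vars had 446 on the cKO LT-HSC array and 833 on the WT LT-HSC array, with 705 on the cKO MPP and 696 on the WT MPP array. It was thus highest on the WT LT-HSC array and lowest on the cKO LT-HSC array, with the MPP arrays in between and close to each other. Ears2 had 23.5 on the cKO LT-HSC array and 66.0 on the WT LT-HSC array. Hars (0.05 ± 0.21), Qars (0.05 ± 0.20), Eprs (0.09 ± 0.21), Iars (0.11 ± 0.20), Dars (0.12 ± 0.20) and Sars (0.12 ± 0.20) differed by less than the scanner error. The stromal, B cell and erythroid sums given above also differed between these arrays, and their part was not tested.

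**Figure D4:**
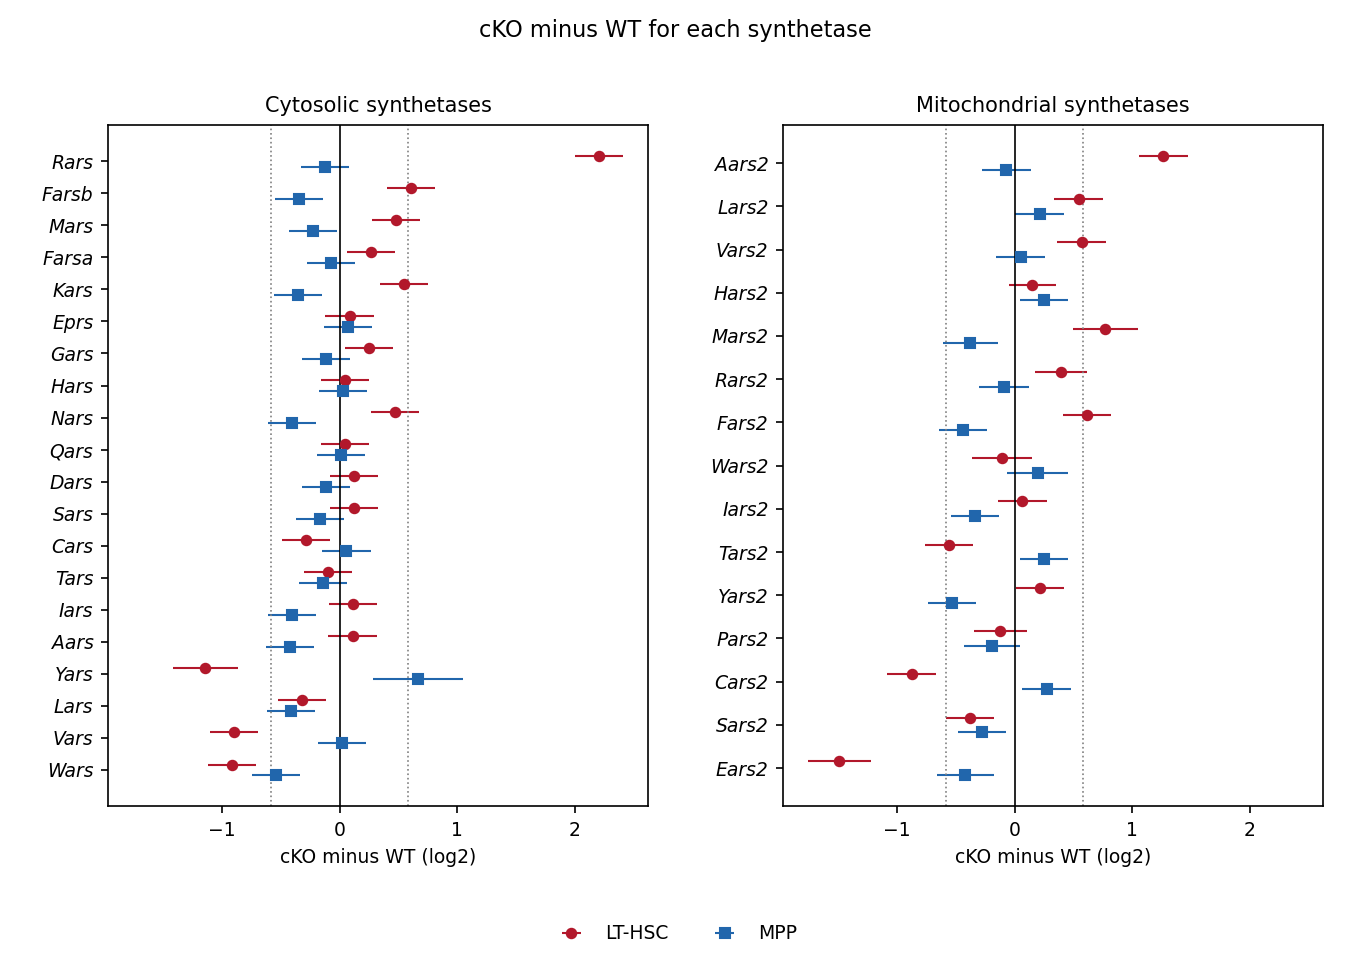
Points give cKO minus WT on the log2 scale for each synthetase in LT-HSC (red circles) and in MPP (blue squares), bars the scanner software's error of the difference, and dotted lines 1.5-fold. Rars at 2.21 and Aars2 at 1.27 stand to the right and Ears2 at -1.49 to the left in LT-HSC, while all MPP points but Yars lie inside the dotted lines.

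Probes of the same gene did not always give the same answer in LT-HSC. Of the 7 synthetases with more than 1 probe well above background on both LT-HSC arrays, 4 had the same direction of cKO minus WT at every probe and 3 had probes more than 2-fold apart. Wars, the tryptophan enzyme, which interferon gamma induces, is the clearest case. Its brighter probe (chr12:110104366-110104425, mm9, minus strand) had 663 on the cKO LT-HSC and 1252 on the WT LT-HSC array, with 1323 on the cKO MPP and 1922 on the WT MPP array. Its other probe (chr12:110098245-110098304), listed for another transcript of the gene, had 239.7 on the cKO LT-HSC and 107 on the WT LT-HSC array, with 429 on the cKO MPP and 405 on the WT MPP array. Set against WT, cKO thus stood at -0.92 at the first and 1.16 at the second, so no direction is given for the gene. Both probes were lower in LT-HSC than in MPP, by -0.996 and -0.84 in cKO and by -0.62 and -1.92 in WT. Of 14 interferon response genes, 11 were lower on the cKO LT-HSC array than on the WT LT-HSC array (median -0.44), against 41.4% of all genes. Between populations the same list went the other way from both Wars probes. It was higher in LT-HSC than in MPP for 11 of 12 genes in cKO (median 0.64) and 9 of 11 in WT (median 1.24).

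Cars2, the mitochondrial cysteine enzyme, was split in the same way, at -0.88 and 0.74 for cKO minus WT in LT-HSC. Its population difference was -0.61 and 0.05 in cKO and 0.54 and -1.07 in WT. Farsa gave 0.27, 0.51 and -0.75 at its 3 probes for cKO minus WT in LT-HSC, and the probe at -0.75 is the intron-crossing one printed above. The same probe stood at -0.87 in MPP, with 881 on the cKO LT-HSC and 1482 on the WT LT-HSC array and 1135 on the cKO MPP and 2068 on the WT MPP array. In cKO it was thus below WT in LT-HSC and in MPP, which the other Farsa probes (-0.07 and -0.33 in MPP) showed in MPP but not in LT-HSC. Vars2, for valine, kept its direction in LT-HSC, at 0.57 and 1.18.

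**Figure D5:**
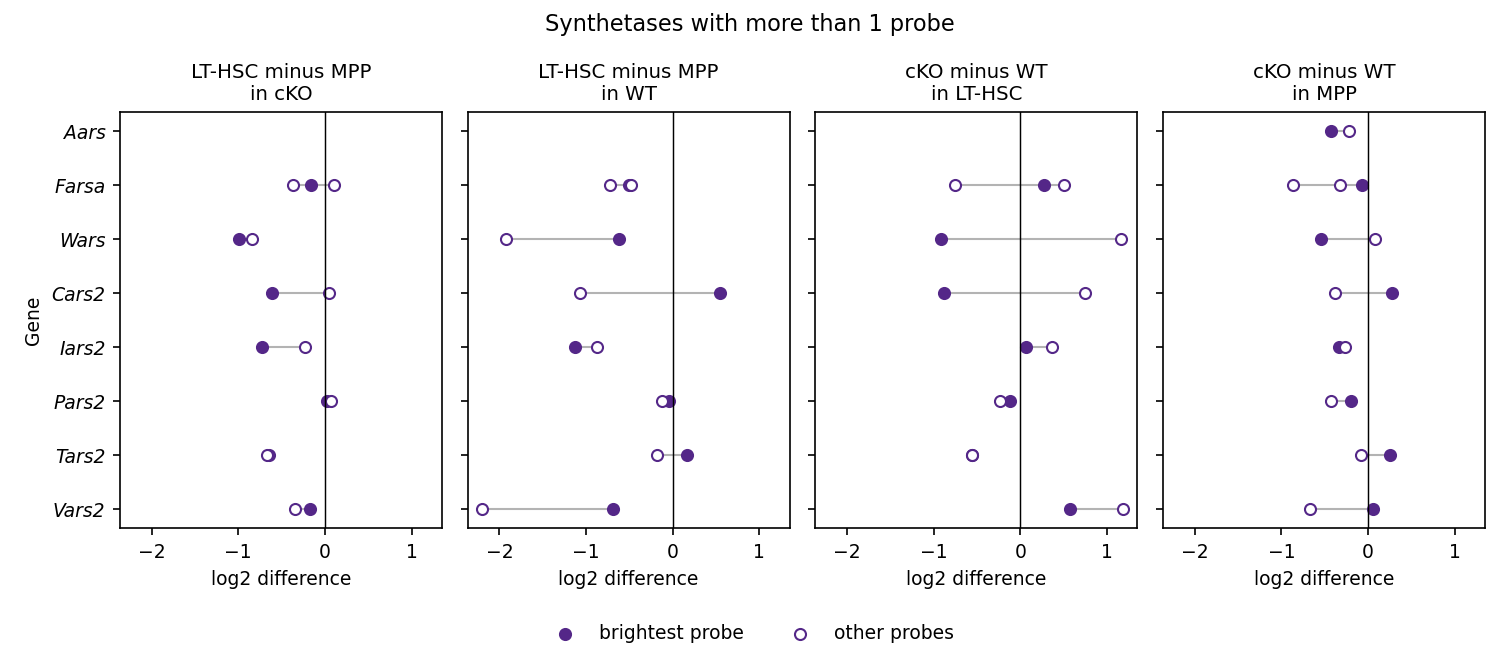
Each row is 1 of the synthetases with more than 1 probe well above background on both arrays of a comparison (8 for cKO minus WT in MPP, 7 for the others), and each panel 1 comparison on the log2 scale, with filled circles for the brightest probe and open circles for the others. Probes share a direction for 5 of 7 genes in each comparison of LT-HSC with MPP, and for 4 of 7 (LT-HSC) and 4 of 8 (MPP) in the comparisons of cKO with WT.

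In MPP the genotypes were closer together. The synthetases had a median difference of -0.13 (cKO minus WT), against -0.06 over all genes, and a standard deviation over genes of 0.27, against 0.69 in LT-HSC. By 1.5-fold or more, 0 of 35 were lower on the cKO array and 1 was higher, where 7.52% and 6.63% of all genes passed. By any amount 23 of 35 were lower, against 56.5%, and by 2-fold 0 were lower and 0 higher, against 1.89% and 1.76%. The higher gene was the dim Yars (0.67 ± 0.39, and 0.16 with normexp). Wars at its brighter probe (-0.54 ± 0.20), the mitochondrial tyrosine enzyme Yars2 (-0.53 ± 0.21) and the mitochondrial phenylalanine enzyme Fars2 (-0.44 ± 0.20) were the lowest. Fars2 had 614 on the cKO MPP and 832 on the WT MPP array, Yars2 252 and 363. Cytosolic genes had a median of -0.13 and mitochondrial ones of -0.09. Macrophage markers, which summed to 24115 on the cKO MPP and 11628 on the WT MPP array, moved with this comparison, and their part was not tested. The additive fit (limma, Benjamini-Hochberg) called 0 members and 0% of all genes for the shared genotype effect. The lowest adjusted p among members was 0.97, and 0 members had an unadjusted p under 0.05, against 3.60% of all genes.

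Because many cytosolic synthetase genes are known targets of Atf4, promoters were searched for the element that Atf4 binds with C/EBP partners, TGATGNAA on either strand, in the 250 bases before and 50 after the start (RefSeq, GRCm38.p6). The table held promoters of 27 of the 36 genes; Cars, Hars, Lars, Nars, Rars, Vars, Wars, Hars2 and Pars2 had none. The letters occurred in 5 of 13 cytosolic genes and in 0 of 14 mitochondrial ones, against 3.97% of all 32851 promoters. Below, capitals mark the match within 20 bases on each side, on the strand of the gene, and Aars had a pair of matches.
Aars, chr8:111033710-111033757, plus strand: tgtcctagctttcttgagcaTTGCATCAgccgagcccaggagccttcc
Aars, chr8:111033831-111033878, plus strand: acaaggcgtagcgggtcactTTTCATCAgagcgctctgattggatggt
Gars, chr6:55037951-55037998, plus strand: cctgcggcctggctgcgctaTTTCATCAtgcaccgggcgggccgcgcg
Iars, chr13:49682117-49682164, plus strand: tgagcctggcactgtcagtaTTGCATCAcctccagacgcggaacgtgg
Tars, chr15:11399646-11399693, minus strand: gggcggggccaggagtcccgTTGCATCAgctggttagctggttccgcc
Yars, chr4:129189886-129189933, plus strand: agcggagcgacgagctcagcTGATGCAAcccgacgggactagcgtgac

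Of the genes with these letters, the alanine enzyme Aars had 176 and 163 on the cKO and WT LT-HSC arrays, against 280 and 375 on the cKO and WT MPP arrays (-0.66 ± 0.21 in cKO, -1.20 ± 0.21 in WT). Iars, for isoleucine, had 502 and 465 on the cKO and WT LT-HSC arrays, against 882 and 1168 on the cKO and WT MPP arrays (-0.81 ± 0.20 in cKO, -1.33 ± 0.20 in WT). Tars, for threonine, differed by -0.66 ± 0.20 in cKO and -0.70 ± 0.20 in WT. Aars, Gars, Iars and Tars were thus lower on both LT-HSC arrays than on both MPP arrays, and the dim Yars was not. Genes without the letters, such as Dars, Eprs and Farsb, were lower as well.

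The E-box CACGTG, which Myc and related factors bind, was found in 4 of 13 cytosolic genes (Aars, Farsb, Iars and Tars) and 1 of 14 mitochondrial ones (Ears2), against 7.15% of all promoters. It does not overlap the other element in any of these promoters. In Farsb, which differed by -1.02 in cKO and -1.97 in WT between populations, it starts 39 bases before the start site, with capitals for the E-box.
Farsb, chr1:78488911-78488956, minus strand: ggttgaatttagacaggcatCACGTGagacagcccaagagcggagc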

How the data were processed

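The members and the gene lists were chosen with earlier results of these data known. Per the file headers, the deposited scanner tables hold spot intensities from Agilent Feature Extraction 10.7.3.1, corrected by the authors for background and spatial trends array by array, without scaling between arrays; the submitters' processing notes name version 9.5.3. Deposited flags, each a score of 0 or 1, mark spots well above background and outliers. The authors' deposited series table holds ratios to a level of each probe, and its differences matched the scanner values (r = 1) with the 75th percentile as scaling.

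Outlier spots (137 to 151 per array) were left out, log2 signals were reduced by each array's 75th percentile, and spots of a probe were averaged. Scaled signals were put back at the mean percentile of the 4 arrays. Genes follow the name in the scanner files; of 46 member probes, 44 had an accession that RefSeq (GRCm38.p6) gives to the same symbol, 1 to Mars1 (the newer symbol of Mars), and 1 did not match. A gene was represented by its brightest probe that passed the background flag on 1 array or more. All members could be named, and from each other list up to 4 genes with the largest differences, or any gene of lists of 8 or fewer; Cd34, Flt3 and Slamf1 are markers of the sort. Genes that passed the flag on 2 arrays or more entered limma 3.58.1 (R 4.3.3, lmFit and eBayes, 1 residual degree of freedom), tested on simulated data, where it recovered none of the planted LT-HSC minus MPP differences at the adjusted threshold. Probe positions are on mm9; exon annotation of that build was not used here. The number of arrays, 1 per group, limits the precision. Alternatives were normexp with an offset of 50, quantile normalization, another percentile, all probes of a gene, no filter on dim probes and the authors' table.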

Additional observations from a re-analysis of the deposited data

Results flagged for a closer look

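Yars, the cytosolic tyrosine enzyme, was picked out because cKO minus WT passed 1.5-fold in opposite directions in the populations: -1.14 ± 0.28 in LT-HSC and 0.67 ± 0.39 in MPP. The difference between these effects was not tested, since each rests on 1 pair of arrays. With normexp background correction both fell under 1.5-fold, at -0.40 in LT-HSC and 0.16 in MPP. Its 1 probe was dim, with scaled signals of 25.4 on the cKO LT-HSC and 56.1 on the WT LT-HSC array, and 33.4 on the cKO MPP and 21.04 on the WT MPP array, where the lowest unscaled signals well above background were 12.6, 12.5, 12.8 and 15.4.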

How the results depend on the processing

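The lower synthetase signal in LT-HSC than in MPP kept its direction under every alternative tried, for cytosolic and mitochondrial medians in both genotypes. Sizes moved as follows. With normexp, LT-HSC minus MPP had a median of -0.93 for cytosolic and -0.52 for mitochondrial genes in WT and of -0.30 for mitochondrial genes in cKO, where 1 mitochondrial gene was lower by 1.5-fold; 0 cytosolic genes were higher by 1.5-fold in WT, and for cKO minus WT 1 cytosolic and 1 mitochondrial gene were higher in LT-HSC and 0 cytosolic ones in MPP. With quantile normalization the cytosolic median in WT was -0.77, the gap between cytosolic and mitochondrial medians -0.0097, and 1 mitochondrial gene was higher. With the percentile taken only over probes that passed the background flag on each of the 4 arrays, 8 cytosolic and 3 mitochondrial genes were lower in cKO by 1.5-fold and 1 mitochondrial gene was higher in WT. When all probes of a gene were averaged, the mitochondrial median in WT was -1.07 and the gap -0.066, and 1 mitochondrial gene was lower for cKO minus WT in LT-HSC, where Wars stood at 0.12.

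A pair of alternatives was chosen after seeing the data. With the dimmest probe of each gene, the mitochondrial median was -1.07 in WT (gap -0.11); for cKO minus WT it was 0.38 in LT-HSC (gap -0.26, 5 genes higher and 1 lower) and -0.33 in MPP (gap 0.20, 1 lower), Wars stood at 1.16 and Cars2 at 0.74 in LT-HSC, and Cars2 at 0.048 for LT-HSC minus MPP in cKO. Relative to the median of all genes, 8 cytosolic and 3 mitochondrial genes were lower in cKO, 1 mitochondrial gene was higher in WT, and 1 cytosolic gene was higher for cKO minus WT in LT-HSC. The additive fit (limma, Benjamini-Hochberg) called 0 members under every alternative it was run with, with lowest adjusted p for LT-HSC minus MPP of 0.12 to 0.31; over all genes it called 139 with normexp, 102 with the restricted percentile and 154 with averaged probes, against 0 otherwise. Why values moved was not tested. No paired analysis was possible because each group has 1 array, and no array could be left out of the fit for the same reason.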
